A study of Mus musculus with 6 samples.

Results

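The dual-specificity phosphatase (Dusp) genes listed here were Dusp1, Dusp2, Dusp4, Dusp5, Dusp6, Dusp8, Dusp10, Dusp13, Dusp14 and Dusp16. They were taken from the count tables by symbol, as a list drawn up with earlier results of these data known, and make up 10 of the 24 Dusp symbols and of the 24411 gene features in the count tables. All 10 passed the filter on low counts. Dusp13 passed only through its GSK-J4 libraries and Dusp14 only through its LPS + GSK-J4 libraries, so their directions are not independent of the filter. RNA-seq libraries of primary microglia (PM) were compared in 2 groups, 3 libraries treated with GSK-J4 (10 μM, written GSKJ4 in the labels) and 3 libraries treated with LPS (10 ng/ml) together with GSK-J4 (10 μM), all at 4-h. GSK-J4 inhibits the H3K27 demethylase JMJD3 and was present in every library. Each difference given here is thus between PM given the TLR4 ligand LPS with GSK-J4 and PM given GSK-J4 without LPS. The groups also differed in ribosomal counts and marker genes, given below. A fit without the ribosomal features is also given below, and the part of other cell types in each difference was not tested. Untreated PM and PM treated with LPS alone were not analysed here. PM were shaken off mixed glial cultures of pooled whole brains of ICR mice at postnatal day 3, which limits them as a model, since such cultures also hold astrocytes and other glia and no sort of these cells was described. The study's methods give most of the cells as CD11b-positive microglia by flow cytometry.

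Dual-specificity MAP kinase phosphatases remove the phosphates from both the threonine and the tyrosine of the activation loop of ERK, JNK and p38 and so switch these kinases off. Many of them are immediate early or delayed early genes that the same kinases induce, which makes them a negative feedback on MAPK signaling, and in macrophages and microglia this feedback limits how long cytokine genes stay on after TLR ligands. The genes are grouped by their products into the nuclear inducible phosphatases (Dusp1, Dusp2, Dusp4 and Dusp5), the cytoplasmic ERK-selective phosphatase (Dusp6), the JNK- and p38-selective phosphatases (Dusp8, Dusp10 and Dusp16) and small atypical enzymes without the kinase-binding domain (Dusp13 and Dusp14).

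The libraries held 2597505 to 3472716 counts on genes. The ribosomal RNA precursor Rn45s took 22.2 to 32.4% of these counts in GSK-J4 against 45.8 to 48.1% in LPS + GSK-J4, and GSK-J4 replicate 3 had the highest share of its group and the smallest library. Replicate 3 stood apart in both groups, with a chi-square per degree of freedom of 13.5 and 13.9 against replicates 1 and 2 in GSK-J4, where these differed from each other by 2.21, and of 6.44 and 6.52 in LPS + GSK-J4, where they differed by 2.48. Without replicate 3 of both groups the Dusp genes had log2-fold changes of 0.78 to 1.84, or -2.85 for Dusp13, and 2 were called up-regulated, Dusp4 and Dusp14. Counts were therefore scaled by TMM factors to CPM, counts relative to a common library size, which leaves the median log2-fold change of all genes at -0.00064, and a count of 3 in a library corresponds to between 0.673 and 1.24 CPM. A gene was called up- or down-regulated when its adjusted p did not exceed 0.01 and its log2-fold change reached 1.5 in either direction. By that rule, 299 of 10133 genes tested (2.95%) were up-regulated and 82 (0.809%) were down-regulated, and with library totals in place of TMM factors these numbers were 124 and 354. The libraries of a group are described as biological replicates from pooled brains, so the p-values measure the spread between such samples and not between single animals.

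Levels of 9 of the 10 Dusp genes were higher in all 3 LPS + GSK-J4 libraries than in any GSK-J4 library, against 19.8% of all genes tested, and the level of Dusp13 was lower in all 3, against 18.4% of all genes tested. At an adjusted p up to 0.01 without a fold limit, 8 of the 10 were higher, against 8.42% of all genes tested, and 1 was lower, against 5.46%. With the fold limit, 1 was called up-regulated (Dusp4) and 1 was called down-regulated (Dusp13), against the 2.95% and 0.809% given above, and 8 were not called. Dusp13 and Dusp14 are in these counts, although each passed the filter only through the group where it was higher. The 10 were listed with earlier results of these data known, so the counts beside the shares of all genes are a description and no support. The median log2-fold change of the 10 was 1.12. With library totals and no TMM factor, which moved the median of all genes to -0.57, each of the 10 kept its direction, 0 were called up-regulated and 1 down-regulated, and of the 8 higher genes Dusp1, Dusp2 and Dusp4 kept an adjusted p up to 0.01.

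**Figure D1:**
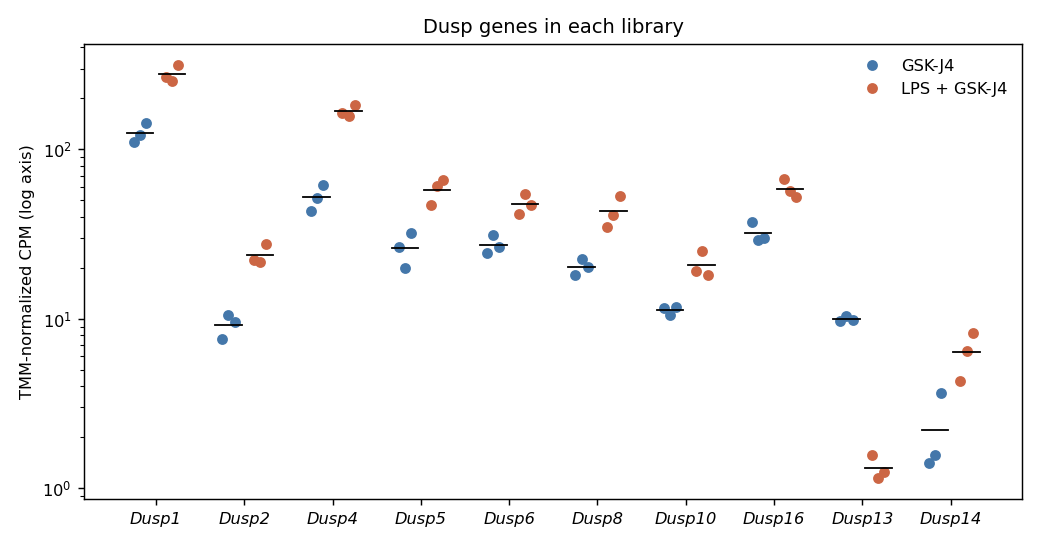
TMM-normalized CPM of each Dusp gene (log axis) in the 3 GSK-J4 and the 3 LPS + GSK-J4 libraries, with points for libraries and lines for group means. For 9 genes the LPS + GSK-J4 points lie above all GSK-J4 points, and for Dusp13 they lie below, near 1 CPM.

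Within the promoter windows of the Dusp genes, the sequences below show stretches that hold response elements described in the next paragraph. Each is the stretch from 150 to 51 bases before the annotated start, 5′ to 3′ on the gene's strand, from RefSeq on GRCm38.p6 (mm10), and capitals mark the motif matches.
Dusp1, chr17:26508523-26508622, minus strand: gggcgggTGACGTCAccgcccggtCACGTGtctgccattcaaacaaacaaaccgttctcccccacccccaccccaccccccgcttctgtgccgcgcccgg
Dusp8, chr7:142095335-142095434, minus strand: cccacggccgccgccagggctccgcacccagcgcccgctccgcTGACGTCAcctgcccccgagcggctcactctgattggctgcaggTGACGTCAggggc
Dusp2, chr2:127336009-127336108, plus strand: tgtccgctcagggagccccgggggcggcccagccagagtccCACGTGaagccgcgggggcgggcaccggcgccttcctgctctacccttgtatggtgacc
Dusp5, chr19:53528995-53529094, plus strand: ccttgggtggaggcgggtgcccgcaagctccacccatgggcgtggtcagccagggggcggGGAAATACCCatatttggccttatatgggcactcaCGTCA
Dusp16, chr6:134792679-134792778, minus strand: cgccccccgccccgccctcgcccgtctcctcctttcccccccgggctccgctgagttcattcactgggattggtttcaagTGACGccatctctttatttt
Dusp13, chr14:21748673-21748772, minus strand: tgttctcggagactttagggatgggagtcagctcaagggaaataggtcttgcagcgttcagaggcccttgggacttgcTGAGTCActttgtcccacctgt

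Motifs were searched on both strands of windows of 300 bases, from 250 before to 50 after each start, and 9 of the 10 Dusp genes had a window, among them 4 windows for Dusp13. The full cAMP response element, TGACGTCA, was in 1.79% of 32851 windows of all genes and in the windows of Dusp1, once at 143 bases before the start, and Dusp8, at 107 and 63 bases before the start. Its shorter form TGACG, of which each full element holds 1 on each strand, was in 20.8% of all windows and in those of Dusp1, Dusp2, Dusp5, Dusp8 and Dusp16, with that of Dusp2 after the start and so outside the stretch printed. The E-box CACGTG was in 7.15% of all windows and in those of Dusp1, at 126 bases before the start, and Dusp2, at 109 bases before the start. The NF-κB motif GGGNNNTTCC was in 5.56% of all windows and, on the opposite strand at 90 bases before the start, in that of Dusp5. The AP-1 motif TGANTCA was in 7.81% of all windows and in the most upstream of the Dusp13 windows, at 72 bases before its start. TATAAA was in 13.6% of all windows and in none of these 9 genes' windows. The windows of Dusp6, Dusp10 and Dusp14 held none of these letters. Dusp1 and Dusp8, with the full cAMP response element, had log2-fold changes of 1.16 and 1.08, inside the range of 0.79 to 1.61 of the other higher genes with a window. A match is a run of letters and no measured binding site.

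Of the nuclear phosphatases, Dusp1 encodes the enzyme that acts on p38, JNK and ERK and holds back cytokine production in macrophages. Its gene lies at chr17:26505590-26562128 on the minus strand in GENCODE, a span of 56539 bases with 3311 exon bases. The RefSeq start used for its promoter window lies inside that span. Ergic1, on the plus strand and counted as well, shares 11 exon bases with Dusp1. Dusp1 was at 111, 122 and 144 CPM in GSK-J4 and at 267, 255 and 316 CPM in LPS + GSK-J4. The groups did not overlap, and GSK-J4 replicate 3 and LPS + GSK-J4 replicate 3 were the highest of their groups. Its mean went from 126 ± 16.7 to 279 ± 32.8 CPM (SD, n = 3). This gave a log2-fold change of 1.16 ± 0.132 (SE) with an adjusted p of 8.92e-06, and the change was below the fold limit.

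Dusp4, at chr8:34807297-34819894 on the plus strand, encodes a nuclear phosphatase of ERK and JNK and was the up-regulated member. Its level was 43.4, 51.4 and 62.0 CPM in GSK-J4 against 164, 158 and 182 CPM in LPS + GSK-J4. The lowest LPS + GSK-J4 library was well clear of the highest GSK-J4 library. The log2-fold change was 1.69 ± 0.144 (SE), with a 95% confidence interval from 1.39 to 2.00 that crossed the fold limit and an adjusted p of 3.45e-07. Among all genes tested, 97.8% had a lower log2-fold change. Leaving out each library in turn gave between 1.57 and 1.82, and library totals without TMM factors gave 1.14, below the limit, with an adjusted p of 3.25e-06.

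Dusp2, at chr2:127336159-127338376 on the plus strand, encodes a nuclear phosphatase of activated leukocytes. It was at 7.55, 10.5 and 9.53 CPM in GSK-J4 and at 22.2, 21.8 and 27.7 CPM in LPS + GSK-J4. The groups did not overlap, on between 26 and 67 counts per library. Its log2-fold change was 1.37 ± 0.218 (SE), with a 95% confidence interval from 0.91 to 1.83 and an adjusted p of 0.000238, so the estimate was below the fold limit and the interval was not.

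Dusp5, at chr19:53529109-53542431 on the plus strand, encodes the nuclear phosphatase that acts on ERK alone. It was at 26.7, 20.0 and 31.9 CPM in GSK-J4 and at 46.8, 61.1 and 65.7 CPM in LPS + GSK-J4. LPS + GSK-J4 replicate 1 was the lowest of its group and still above all GSK-J4 libraries. The log2-fold change was 1.16 ± 0.19 (SE), with an adjusted p of 0.000299. An annotated antisense transcript, which the count tables do not list, shares 547 exon bases with Dusp5.

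Dusp6, at chr10:99263231-99267489 on the plus strand, encodes the cytoplasmic phosphatase of ERK, and its transcript is widely used as a readout of ERK activity. It was at 24.3, 31.4 and 26.4 CPM in GSK-J4 and at 41.4, 54.2 and 47.1 CPM in LPS + GSK-J4. The groups did not overlap, and replicate 2 was the highest in both. Its log2-fold change of 0.79 ± 0.17 (SE), with an adjusted p of 0.00273, was the smallest of the 9 genes that were higher. Without GSK-J4 replicate 1, without GSK-J4 replicate 3 and without LPS + GSK-J4 replicate 2 the adjusted p was 0.022, 0.0104 and 0.0276.

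The phosphatases that prefer JNK and p38 had log2-fold changes between 0.86 and 1.08. Dusp8, at chr7:142079490-142095843 on the minus strand, is known from brain and heart. It was at 18.2, 22.7 and 20.2 CPM in GSK-J4 and at 34.7, 41.2 and 53.3 CPM in LPS + GSK-J4, where the libraries were spread more widely. Its log2-fold change was 1.08 ± 0.191 (SE), with an adjusted p of 0.000605.

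Dusp16, at chr6:134715468-134792625 on the minus strand, encodes a phosphatase that shuttles between nucleus and cytoplasm and prefers JNK. It was at 37.5, 29.2 and 30.1 CPM in GSK-J4 and at 67.1, 56.5 and 52.0 CPM in LPS + GSK-J4. Replicate 1 was the highest in both groups, which did not overlap. The log2-fold change was 0.86 ± 0.162 (SE), with an adjusted p of 0.00105, and 0.0103 without GSK-J4 replicate 2.

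Dusp10, at chr1:184013302-184075636 on the plus strand, encodes a phosphatase of JNK and p38 that limits innate immune responses in mice. It was at 11.6, 10.5 and 11.7 CPM in GSK-J4 and at 19.1, 25.2 and 18.2 CPM in LPS + GSK-J4, where replicate 2 stood above the other two. The log2-fold change was 0.89 ± 0.212 (SE), with an adjusted p of 0.00594. The adjusted p was 0.0224, 0.0358 and 0.0147 without GSK-J4 replicates 1, 2 and 3, 0.0486 without LPS + GSK-J4 replicate 2, and 0.0364 in the DESeq2 Wald test.

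**Figure D2:**
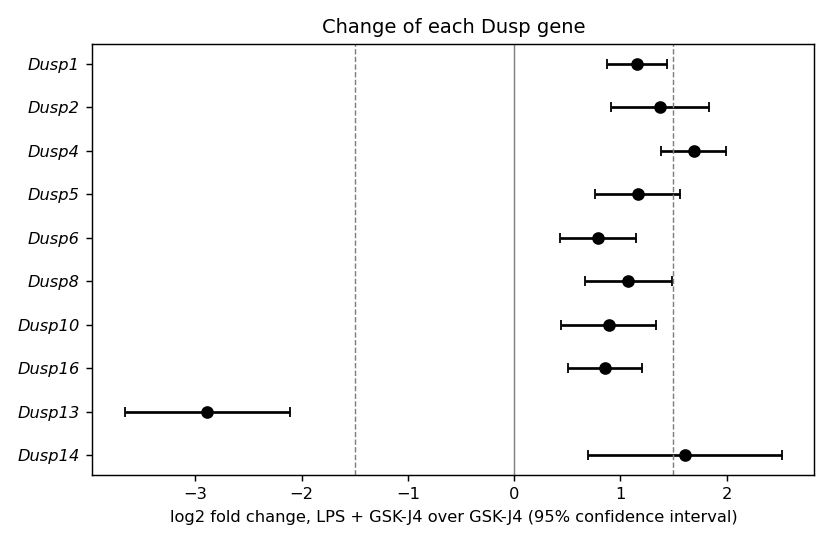
Log2-fold change of each Dusp gene, LPS + GSK-J4 over GSK-J4, with 95% confidence intervals as bars and the fold limit of 1.5 in either direction as broken lines. The intervals of Dusp1, Dusp6, Dusp8, Dusp10 and Dusp16 end below 1.5, those of Dusp2, Dusp4, Dusp5 and Dusp14 cross it, and that of Dusp13 lies beyond -1.5.

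Dusp13 was the down-regulated member. The locus, at chr14:21733394-21751181 on the minus strand, encodes small phosphatases known from skeletal muscle and testis, and the annotation gives it 14 transcripts. It was at 9.67, 10.3 and 9.90 CPM in GSK-J4, with little spread, and at 1.56, 1.14 and 1.24 CPM in LPS + GSK-J4. The underlying counts were 41, 46 and 27 in GSK-J4 against 4, 3 and 3 in LPS + GSK-J4, so all LPS + GSK-J4 libraries stood at or near the level that 3 counts give. The log2-fold change was -2.89 ± 0.365 (SE), with a 95% confidence interval from -3.66 to -2.11 and an adjusted p of 2.57e-05. The summed counts of 114 and 10 gave a level 7.59 times higher in GSK-J4, with a 95% interval from 3.98 to 16.3 that covers counting error only. Only 0.0296% of the genes tested had a lower log2-fold change, and Dusp13 was among these genes only through its GSK-J4 counts.

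The 5′ end of Dusp13 overlaps that of Samd8, which lies on the plus strand at chr14:21750531-21798726 and encodes a ceramide phosphoethanolamine synthase. Samd8 was at 303, 349 and 292 CPM in GSK-J4 and at 103, 82.8 and 68.1 CPM in LPS + GSK-J4. It was down-regulated, with a log2-fold change of -1.89 ± 0.148 (SE) and an adjusted p of 1.17e-07. The exons of the pair share 0 bases in the GENCODE annotation, and an antisense transcript that the count tables do not list, Gm15935, shares 280 exon bases with Dusp13. On the strand opposite to Dusp13, 17, 14 and 9 fragments were counted in GSK-J4 against 1, 1 and 1 in LPS + GSK-J4, whereas the other Dusp genes had between 0 and 5 per library. The part of Samd8 transcripts in the Dusp13 count was not tested.

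Dusp14, at chr11:84048041-84069261 on the minus strand, encodes a small phosphatase known to restrain T cell receptor signaling. It was the least counted of the Dusp genes in GSK-J4, at 1.42, 1.57 and 3.67 CPM, and reached 4.29, 6.49 and 8.26 CPM in LPS + GSK-J4. The groups did not overlap, but GSK-J4 replicate 3 lay close to LPS + GSK-J4 replicate 1, on 10 and 11 counts. The log2-fold change was 1.61 ± 0.43 (SE), larger than the fold limit, and the adjusted p of 0.0126 missed the threshold. The call was made without GSK-J4 replicate 3 (log2-fold change 2.05, adjusted p of 0.00647) and without LPS + GSK-J4 replicate 1 (1.82 and 0.00852). The change was below the fold limit without GSK-J4 replicate 1 (1.36, adjusted p of 0.0629), without GSK-J4 replicate 2 (1.40 and 0.0645) and without LPS + GSK-J4 replicate 3 (1.39 and 0.0356), and without LPS + GSK-J4 replicate 2 the adjusted p was 0.05. The adjusted p was 0.0653 in the DESeq2 Wald test. Summed counts of 23 in GSK-J4 against 48 in LPS + GSK-J4 gave a level 3.13 times higher in LPS + GSK-J4, with a 95% interval from 1.87 to 5.4 for counting error.

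Because each fold change differed between TMM factors and library totals, the Dusp genes were also set against Dusp6 in the same library, a ratio that no scaling changes. Dusp6 was taken as the base after the values were seen, and since it had the smallest log2-fold change of the 9 higher genes, the ratios of the other higher genes were bound to rise on average, so their direction is a description and no support. Counts of Dusp4 per count of Dusp6 were 1.79, 1.64 and 2.35 in GSK-J4 against 3.95, 2.92 and 3.86 in LPS + GSK-J4, without overlap. For Dusp2 this ratio was 0.336 ± 0.0252 in GSK-J4 against 0.509 ± 0.0964 in LPS + GSK-J4 (SD, n = 3), also without overlap. The ratio of Dusp13 went from 0.367 ± 0.0354 to 0.0284 ± 0.0085. The ratios of Dusp1, Dusp5, Dusp8, Dusp10, Dusp14 and Dusp16 overlapped between the groups, with differences of 0.07 to 0.81 on the log2 scale. With 3 libraries against 3, an exact permutation test cannot give a 2-sided p below 0.1.

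To compare levels between the genes, CPM were divided by the exon length of each gene. The summed level of the 10 was 97.7 ± 10.8 CPM per kb in GSK-J4 against 223 ± 19.8 CPM per kb in LPS + GSK-J4 (SD, n = 3), a ratio of 2.28. Dusp1 made up the largest share of that sum in both groups, 38.7% ± 0.861 in GSK-J4 against 37.8% ± 1.77 in LPS + GSK-J4. Dusp4 followed with 19.4% ± 1.37 (range 18.0 to 20.7%) in GSK-J4 against 27.5% ± 1.02 (range 26.8 to 28.7%) in LPS + GSK-J4. Dusp4 was thus a larger part of the Dusp transcripts in every LPS + GSK-J4 library, while the shares of Dusp1 overlapped.

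Dusp5 and Dusp6 came next, with 10.8% ± 2.05 and 9.0% ± 1.42 in GSK-J4, where their levels per kb overlapped, and with 10.5% ± 1.23 and 6.84% ± 1.05 in LPS + GSK-J4, where they did not. Dusp2, Dusp8, Dusp16 and Dusp10 followed in both groups with 3.10 to 5.34% each. Neighbours among these did not differ beyond their spread in level per kb. Dusp13 was the ninth in GSK-J4, with 3.75% ± 0.39, and the last in LPS + GSK-J4, with 0.217% ± 0.0489. Dusp14 took the other place at 1.13% ± 0.512 and 1.45% ± 0.347. The places below the fourth depend on the length used. With the longest transcript in place of all exons, Dusp1 had 44.7% in both groups and Dusp4 had 15.7% in GSK-J4 against 22.7% in LPS + GSK-J4. Dusp13 then had 4.75%, the sixth place, in GSK-J4 against 0.282%, the last place, in LPS + GSK-J4, and in GSK-J4 Dusp16 came before Dusp2.

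**Figure D3:**
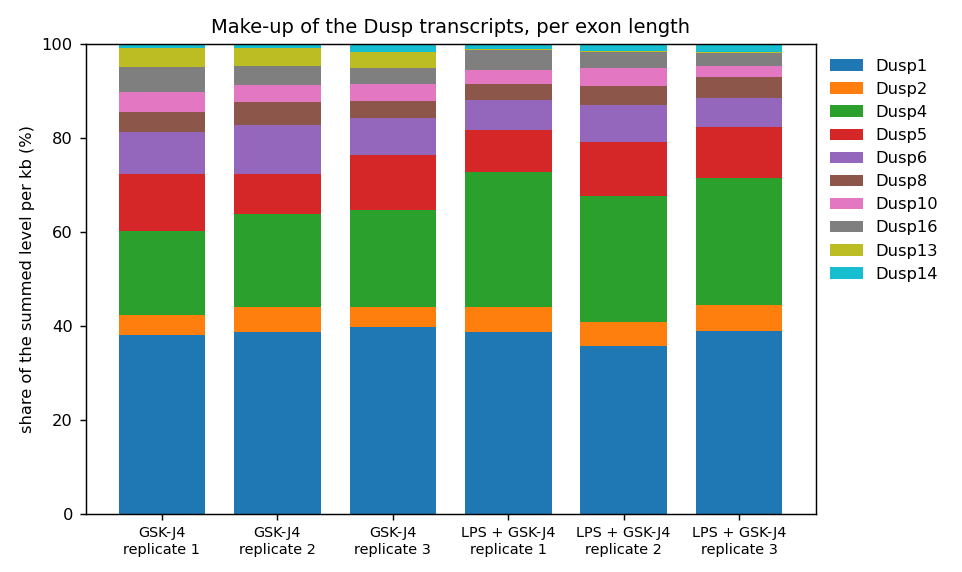
Share of each Dusp gene in the summed level per kb of exon (%), with 1 stacked bar for each library. The green band of Dusp4 widens from 18.0 to 20.7% in the GSK-J4 bars to 26.8 to 28.7% in the LPS + GSK-J4 bars, and the olive band of Dusp13 shrinks to below 1%.

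Among the other dual-specificity phosphatases, 8 of 16 were tested, 0 were called by edgeR or by DESeq2, 2 had an unadjusted p under 0.05 in edgeR, which 34.8% of all genes tested had, and 1 was higher at an adjusted p up to 0.01, with a median log2-fold change of 0.00198. That gene was Dusp7, a cytoplasmic ERK phosphatase related to Dusp6, at 8.34 ± 1.37 CPM in GSK-J4 against 21.2 ± 3.5 CPM in LPS + GSK-J4, with a log2-fold change of 1.33 and an adjusted p of 0.000468. Dusp9, the third of that cytoplasmic group, was at 2.18 ± 1.01 and 4.50 ± 1.16 CPM, with an adjusted p of 0.0758. Dusp26 was at 0 in all libraries. The tyrosine phosphatases of MAP kinases had 1 of 3 tested, Ptpn7, with a log2-fold change of -0.06 and an adjusted p of 0.879.

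In the 4 kinase lists that follow, edgeR and DESeq2 each made 0 calls at the fold limit, and an unadjusted p under 0.05 in edgeR was found for 3 of 9 MAP kinases, 1 of 6 MAP2 kinases, 7 of 15 MAP3 kinases and 6 of 10 MAPK-activated kinases, against 34.8% of all genes tested. Of 9 MAP kinases tested, 1 was lower at an adjusted p up to 0.01, and their median log2-fold change was 0.04. This was Mapk7, the kinase ERK5, at 41.1 ± 3.18 CPM in GSK-J4 against 24.6 ± 6.26 CPM in LPS + GSK-J4, with a log2-fold change of -0.74 and an adjusted p of 0.00921. Mapk4, an atypical MAP kinase, was at 1.52 ± 1.23 and 4.84 ± 1.43 CPM, with an adjusted p of 0.0163. It was at 0.944, 0.673 and 2.93 CPM in the GSK-J4 libraries, on few counts. Mapk4 passed the filter only through its LPS + GSK-J4 libraries, so its direction is not independent of the filter. Of 6 MAP2 kinases tested, 0 were higher or lower at that level, and the smallest adjusted p were those of Map2k7 (log2-fold change -0.39, adjusted p of 0.104) and Map2k2 (0.30, adjusted p of 0.171).

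Of 15 MAP3 kinases tested, 1 was higher and 3 were lower at an adjusted p up to 0.01. Map3k8, the kinase TPL2 that links TLR signals to ERK, was at 17.2 ± 3.03 CPM in GSK-J4 against 38.1 ± 4.19 CPM in LPS + GSK-J4, with a log2-fold change of 1.17 and an adjusted p of 0.000268. Map3k1, a kinase of the JNK branch, was at 116 ± 11.4 and 59.9 ± 5.56 CPM, with a log2-fold change of -0.95 and an adjusted p of 8.36e-05. The groups of both genes did not overlap. Of 10 MAPK-activated kinases tested, 2 were higher and 1 was lower. Mapkapk2, the p38-activated kinase that stabilizes cytokine mRNAs, was at 181 ± 14.2 CPM and 461 ± 41.7 CPM, with a log2-fold change of 1.35 and an adjusted p of 4.03e-07. Rps6ka2, an ERK-activated ribosomal S6 kinase, was at 15 ± 0.616 and 32.1 ± 1.92 CPM, with an adjusted p of 0.00028. The lower gene was Mapkapk3, at 38.6 ± 4.88 and 22.7 ± 3.93 CPM, with a log2-fold change of -0.76 and an adjusted p of 0.00636.

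Sprouty and Spred proteins inhibit the step from growth factor receptors to ERK, and the ERK output genes are transcripts that ERK induces. Of 6 Sprouty and Spred genes tested, 4 had an unadjusted p under 0.05, against 34.8% of all genes tested, 0 were called by edgeR or DESeq2, 2 were higher at an adjusted p up to 0.01 and 0 were lower, with a median log2-fold change of 0.81. Spred1, which holds Ras inactive, was at 39.3 ± 5.93 CPM in GSK-J4 against 105 ± 17.7 CPM in LPS + GSK-J4 (log2-fold change 1.41, adjusted p of 8.01e-06). Spry2 was at 17.6 ± 1.33 and 31.8 ± 3.38 CPM (0.85, adjusted p of 0.00256). Of 7 ERK output genes tested, 7 had an unadjusted p under 0.05, and the median log2-fold change was 1.15. At an adjusted p up to 0.01, 5 were higher. For this list and those above, 8.42% of all genes tested were higher and 5.46% lower at that level, and 2.95% were called up-regulated. The lists were chosen with earlier results of these data known, so their counts are a description as well. Called up-regulated were 2 of the ERK output genes. These were Phlda1, at 15 ± 2.27 CPM in GSK-J4 against 112 ± 30.3 CPM in LPS + GSK-J4 (log2-fold change 2.92, adjusted p of 2.48e-08), and Epha4, at 1.81 ± 1.16 and 7.28 ± 3.09 CPM (1.91, adjusted p of 0.00664). The DESeq2 Wald test called Phlda1 and not Epha4, for which its adjusted p was 0.0176. Of the genes tested, 2 (Spry2 and Spry4) are in both of these lists.

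**Figure D4:**
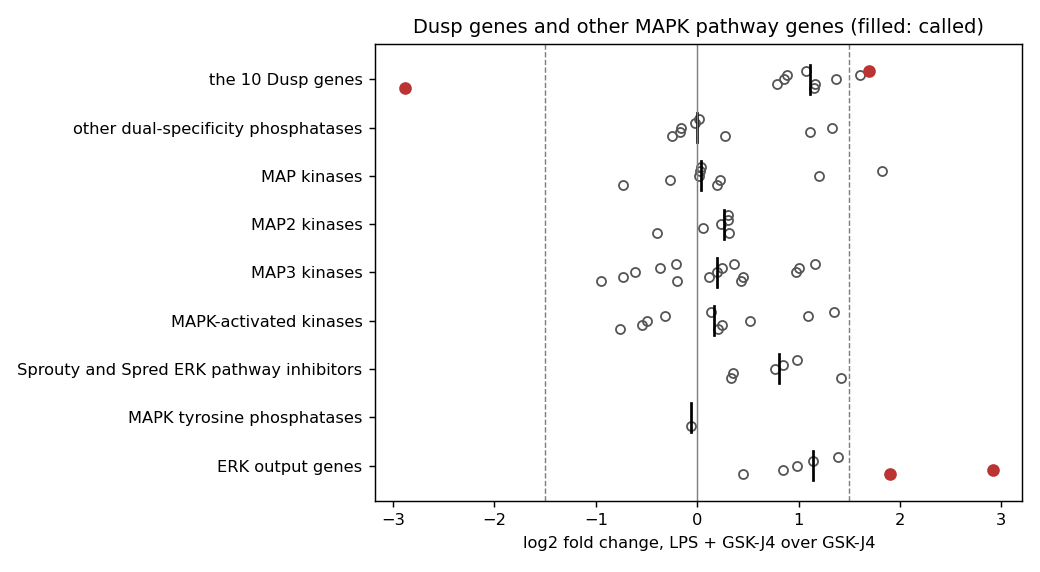
Log2-fold change, LPS + GSK-J4 over GSK-J4, of the tested genes of the 10 Dusp genes and of 8 other lists of the MAPK pathway, with filled points for called genes and bars for medians. The medians of the Dusp genes (1.12) and of the Sprouty and Spred genes (0.81) and the ERK output genes (1.15), which share Spry2 and Spry4, lie to the right of those of the kinase lists, which are between 0.04 and 0.27.

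The labelled cell type was checked against marker genes. All 10 microglia markers were tested and their summed level was between 3320 and 3427 CPM in GSK-J4, against between 2605 and 2735 CPM in LPS + GSK-J4, with 2 lower at an adjusted p up to 0.01 and 0 called. The 7 astrocyte markers summed to between 38.5 and 42.9 CPM in GSK-J4, against between 95.2 and 121 CPM in LPS + GSK-J4, with 2 up-regulated, Sox9 and Gfap, the latter at 16.8 ± 2.34 and 54.4 ± 11.8 CPM. The 8 oligodendrocyte lineage markers went from between 128 and 156 CPM to between 241 and 272 CPM, with 4 of 6 tested higher. The 5 neuron markers summed to between 14.8 and 19.1 CPM and between 32.4 and 40.6 CPM, the 5 fibroblast markers to between 71.8 and 262 CPM and between 132 and 393 CPM, and the 3 endothelial markers to between 11.2 and 16.3 CPM and between 18.0 and 55.3 CPM, with Cldn5 at 0 in all libraries. Both neuron markers tested, Map2 and Tubb3, were higher at an adjusted p up to 0.01, and the endothelial marker tested, Cdh5, was up-regulated (log2-fold change 1.5, adjusted p of 0.00312). Among markers too low to be tested, means went from 0.52 to 0.257 CPM for Rbfox3, from 0.59 to 0.138 CPM for Syt1 and from 1.01 to 0.79 CPM for Pecam1, with overlapping groups. That of Snap25 went from 0.0786 to 1.07 CPM. Of the astrocyte markers, 3 were higher at an adjusted p up to 0.01, and Aldh1l1 had a log2-fold change of -0.16 (adjusted p of 0.864). Of all genes tested, 8.42% were higher and 5.46% lower at an adjusted p up to 0.01, and 2.95% were called up-regulated. In the DESeq2 Wald test Gfap was called, and Sox9 (log2-fold change 1.49) and Cdh5 (1.46) fell short of the fold limit. Astrocytes, oligodendrocyte progenitors and fibroblasts can express Dusp genes as well, and the part of these cells in the Dusp results was not tested. In such bulk samples, fewer cells of a type and less RNA per cell cannot be told apart.

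**Figure D5:**
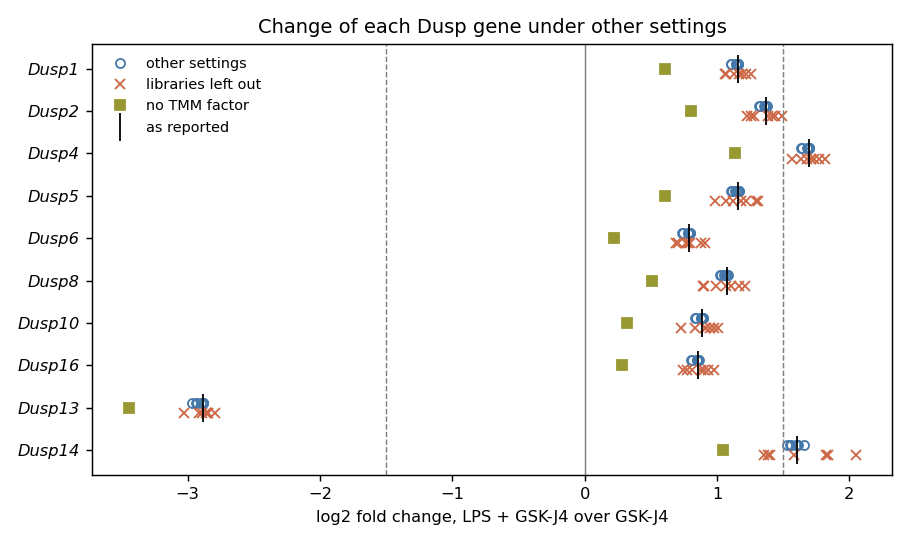
Log2-fold change of each Dusp gene, LPS + GSK-J4 over GSK-J4, as reported (vertical bars), under other settings (circles), with libraries left out (crosses) and with library totals and no TMM factor (squares). The squares of the 9 higher genes lie to the left of the other points but above 0, from 0.23 for Dusp6 to 1.14 for Dusp4, and the points of Dusp13 lie between -3.44 and -2.80.

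With library totals and no TMM factor, a scaling chosen after the values were seen, the log2-fold changes were 0.60 for Dusp1 (adjusted p of 0.00279), 0.80 for Dusp2 (0.00779), 0.60 for Dusp5 (0.0137) and 0.51 for Dusp8 (0.0466). Those of Dusp6, Dusp10 and Dusp16 were 0.23 (0.342), 0.32 (0.252) and 0.29 (0.218), and that of Dusp14 was 1.05 (0.0394). Without the factors, Dusp5, Dusp6, Dusp8, Dusp10 and Dusp16 thus missed the adjusted p of 0.01. Leaving out the factors moves every gene by about as much as the median of all genes. When the ribosomal features were removed before the libraries were scaled, Dusp1 had a log2-fold change of 1.16 and Dusp4 of 1.69, as with them. In that fit Dusp6 had 0.79 and Dusp16 had 0.86, also as with them. Of all genes, 302 were then called up-regulated and 83 down-regulated.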

How the data were processed

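RNA-seq of rRNA-depleted RNA was performed on 6 libraries of PM, 3 per group, with the groups and replicate numbers taken from the labels. The authors trimmed reads with Trimmomatic 0.33, aligned them to mm10 with STAR 2.5.1 and deposited raw counts of fragments per gene, without normalization, in an unstranded column and a column for each strand. The annotation used for counting is not given in the sources used here. The reverse-strand column, which fits the directional kit, was analysed.

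The program edgeR 4.0.16 (R 4.3.3, limma 3.58.1) was used to filter genes (filterByExpr, minimum count 10, minimum total 15), to scale libraries (TMM) and to compare the groups by its quasi-likelihood test with robust dispersions and no covariate, and p-values were adjusted over 10133 genes (Benjamini-Hochberg). DESeq2 1.42.0 was an alternative. The model was run on simulated counts with a common dispersion and with changes well beyond the fold limit. These counts held no ribosomal shift and no library that stood apart, so the run does not bear on calls near that limit. Between 1374377 and 2443344 counts per library lay outside ribosomal features, which limits the precision for genes at a few CPM. Errors are SD over 3 libraries unless named SE. Counting intervals are exact, at 95%, and cover counting error only, since PCR copies were not told apart.

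Gene positions, exon unions and overlaps are from GENCODE vM21 on GRCm38 (mm10), and promoter windows are from RefSeq on GRCm38.p6. Python 3.11.15 (pandas 2.3.3, numpy 2.4.6) was used for the annotation and matplotlib 3.10.9 for the figures.

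All 10 Dusp genes are named. From each pathway list the called genes are named, up to 4 in each direction. Where there was no call, the 2 of the smallest adjusted p are named. Other genes are named where a result turned on them, and Mapkapk3 was added because it was lower. The members and lists were chosen with earlier results of these data known. Alternatives were unstranded counts, DESeq2 size factors, the DESeq2 Wald test, other filters and thresholds, the replicate number as a block, removal of the ribosomal features Rn45s, Mir6236 and Lars2, the longest transcript as gene length and leaving out each library. Library totals without TMM factors and leaving out replicate 3 of both groups, because these libraries stood apart, were added after the data were seen. Protein sequences were not used here.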

Additional observations from a re-analysis of the deposited data

Results flagged for a closer look

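Fragments on the strand opposite to Dusp13, a column outside the comparisons, numbered 17, 14 and 9 in GSK-J4 replicates 1, 2 and 3, above the 1, 1 and 1 counted in LPS + GSK-J4 and above the 3 counts used as the lower limit. They made up 29.3% (95% exact binomial interval 18.1 to 42.7%), 23.3% (13.4 to 36%) and 25% (12.1 to 42.2%) of the fragments of both strands, and scaled to 4.01, 3.14 and 3.3 CPM. In LPS + GSK-J4 the share was 20% (0.505 to 71.6%), 25% (0.631 to 80.6%) and 25% (0.631 to 80.6%), on 1 opposite-strand fragment per library. These intervals are too wide to compare the share between the groups. The fragments in GSK-J4 were singled out because the opposite strands of the other 9 Dusp genes had at most 5 fragments in any library. Their source was not tested.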

How the results depend on the processing

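Each of the 10 Dusp genes kept its direction in every alternative run, and none was reversed. As reported, 1 Dusp gene was called up-regulated and 1 down-regulated, with 299 and 82 of all genes and 2 and 0 of the pathway list genes. Up-regulated Dusp genes numbered 2 without a filter on low counts, 6 under a wider threshold (adjusted p up to 0.05, log2-fold change from 1), 8 without a fold limit, 2 without replicate 3 of both groups, 0 with library totals, and between 1 and 2 with each library left out. With at least 10 counts in every library, Dusp13 and Dusp14 were not tested, so that 0 Dusp genes were down-regulated, and 176 of all genes were up-regulated. Of all genes, 844 were up- and 285 down-regulated at the wider threshold, 853 and 553 without a fold limit, and 124 and 354 with library totals. Up-regulated pathway list genes numbered 1 in the DESeq2 Wald test, 4 without a filter, 1 with the stricter filter, 12 at the wider threshold, 10 without a fold limit and 1 with library totals, and down-regulated ones numbered 5 without a fold limit and 1 with library totals.

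The replicate numbers were not taken as pairs, since the deviations of same-numbered libraries correlated at -0.0102, 0.117 and 0.295, and not every library correlated best with its own number. The highest correlation, 0.295, was between the libraries numbered 3, which stood apart in both groups. Whether these libraries share a source of variation was not tested. With the replicate number as a block, 2 Dusp genes were called up-regulated, the added one being Dusp14 (log2-fold change 1.56, adjusted p of 0.00318), and 306 and 90 of all genes were called up- and down-regulated. Depth limits Dusp13 in LPS + GSK-J4 and Dusp14 in GSK-J4 most, at 3 to 10 counts per library.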
